A study of Homo sapiens with 24 samples.

Results

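The genes described here are 6 kallikrein-related peptidases (KLK5, KLK6, KLK7, KLK8, KLK10 and KLK11), 3 precursors of the cornified envelope (SPRR1B, SPRR3 and IVL) and the enzyme that joins such precursors (TGM1). They were taken by symbol from the deposited gene table, where each stood in 1 line, and make up 10 of its 19932 usable genes. The table covers 18 libraries of HCC827, a human lung adenocarcinoma cell line with an activating EGFR mutation, in 6 groups of 3: Resistant OC and Resistant EV, DTP OC and DTP EV, and Parental OC and Parental EV. OC libraries came from cells that overexpress the circular RNA cATF6 and EV libraries from cells with empty vector; DTP stands for drug-tolerant persister cells and Resistant for cells with acquired resistance. All carry the genotype label WT. The labels name neither the drug that gave the DTP and Resistant cells nor whether the Resistant line is 1 clone, nor whether replicates were grown as separate cultures, so the p-values measure spread between libraries, which may be technical. The series also holds DMSO and osimertinib groups at 10 days, which are not analysed here by gene.

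Kallikrein-related peptidases are secreted serine proteases whose genes lie side by side on the long arm of chromosome 19. In the epidermis KLK5 starts a cascade by activating itself and KLK7, and the active enzymes cut the desmosomal proteins that hold surface cells together, under the control of the inhibitor LEKTI, encoded by SPINK5. The cornified envelope is the protein shell that replaces the membrane of dying surface keratinocytes: involucrin (IVL) and small proline-rich proteins (SPRR) are laid under the membrane, and transglutaminase 1 (TGM1) cross-links them. Lung gland cells do not normally build this shell, whereas squamous epithelia and squamous metaplasia of the airway do.

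The promoters of the envelope precursors and of the kallikreins differ in base composition and in the matches given below, and 5 are shown. Any link of these sequences to the expression values was not tested. Each runs from 250 bases before to 50 bases after the RefSeq start, 5′ to 3′, on GRCh38.p14. Capitals mark matches, on either strand, to TGANTCA (the AP-1 element), TATAAA (the TATA box) and GGGCGG (the GC box, written CCGCCC where it lies on the other strand). IVL lies at chr1:152908296-152908595 and SPRR1B at chr1:153030953-153031252, both on the plus strand, and SPRR3 at chr1:153001499-153001798, also on the plus strand. KLK5 lies at chr19:50952989-50953288 and KLK6 at chr19:50969542-50969841, both on the minus strand.
IVL: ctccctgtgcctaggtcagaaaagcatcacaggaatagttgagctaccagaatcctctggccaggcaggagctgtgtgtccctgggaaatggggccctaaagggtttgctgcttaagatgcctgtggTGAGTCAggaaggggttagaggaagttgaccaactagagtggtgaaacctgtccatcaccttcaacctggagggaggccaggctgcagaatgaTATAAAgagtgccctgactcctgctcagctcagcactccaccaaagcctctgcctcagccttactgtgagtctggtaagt
SPRR1B: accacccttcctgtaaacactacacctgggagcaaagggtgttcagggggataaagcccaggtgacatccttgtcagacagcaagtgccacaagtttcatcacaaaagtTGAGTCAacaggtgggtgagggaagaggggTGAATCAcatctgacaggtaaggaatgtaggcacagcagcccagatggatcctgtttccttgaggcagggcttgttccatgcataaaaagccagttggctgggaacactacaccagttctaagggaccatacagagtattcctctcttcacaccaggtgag
SPRR3: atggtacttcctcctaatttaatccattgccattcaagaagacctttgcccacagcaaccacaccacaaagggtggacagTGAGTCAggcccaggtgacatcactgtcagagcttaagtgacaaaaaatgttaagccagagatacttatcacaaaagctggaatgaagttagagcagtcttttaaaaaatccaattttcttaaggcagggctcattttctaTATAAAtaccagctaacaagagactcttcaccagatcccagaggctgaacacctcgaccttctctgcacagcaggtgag
KLK5: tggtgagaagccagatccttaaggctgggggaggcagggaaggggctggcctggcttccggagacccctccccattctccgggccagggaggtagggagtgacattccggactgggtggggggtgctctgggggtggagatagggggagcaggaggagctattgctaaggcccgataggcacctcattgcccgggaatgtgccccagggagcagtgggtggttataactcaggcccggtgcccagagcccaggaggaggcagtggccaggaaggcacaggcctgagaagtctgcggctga
KLK6: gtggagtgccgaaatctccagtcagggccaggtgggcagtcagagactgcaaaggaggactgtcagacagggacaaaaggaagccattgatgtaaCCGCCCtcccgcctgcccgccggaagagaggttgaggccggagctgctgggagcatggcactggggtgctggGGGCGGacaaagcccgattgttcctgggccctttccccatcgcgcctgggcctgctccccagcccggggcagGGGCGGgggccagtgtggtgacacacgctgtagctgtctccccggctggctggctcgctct

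The AP-1 element stood in all 3 precursor promoters. SPRR1B held 2 of them, TGAGTCA starting 141 bases and TGAATCA starting 111 bases before the start, SPRR3 held 1 at 170 bases and IVL 1 at 123 bases. None of the 9 kallikrein promoters in the table (KLK7 has 3 entries, KLK10 and KLK11 have 2 each) held it, and 7.71% of all 35116 promoters of that length did. TATAAA began 29 bases before the start of SPRR3 and 30 before that of IVL, and 11.5% of all promoters had such a match. GGGCGG was matched 3 times in KLK6, in all 3 KLK7 entries and in 1 of the 2 KLK11 entries. That is 5 of the 12 promoters of these genes, against 45.0% of all. The KLK7 entries overlap one another, as do the KLK10 entries, so counts over the 9 or 12 entries hold some sequence more than once. CCAAT was matched in 3 of the 12 (34.6% of all), and AACCNGTT, a grainyhead-like element, in 0 of the 12 (1.73% of all). By base composition, the precursor promoters held 43.33% (SPRR3) to 53.33% (IVL) G and C, and the 9 kallikrein entries held 59.0% (a KLK10 entry) to 69.33% (a KLK11 entry), with a median of 58.67% over all promoters. KLK8 and TGM1 had no entry. A match is a run of letters, not a measured binding site.

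Levels below are scaled counts: the deposited log10 values turned back into counts and made comparable between libraries by a trimmed mean of M-values. Changes are differences of log2(scaled count + 1) with their standard error (SE), and a fold is 2 to the power of that difference. A gene is called higher or lower where limma's adjusted p is below 0.05, over 15211 tested genes. Library totals ran from 30075330 to 45068508 counts. Counts of ATF6, the gene that cATF6 is named for, were higher in each OC group, and gene counts cannot separate circular from linear or vector reads. Resistant OC held 32301 ± 919 scaled counts against 2106 ± 197 in Resistant EV (SD, n = 3), with 20975 ± 1926 in DTP OC against 3298 ± 14.9 in DTP EV and 18175 ± 333 in Parental OC against 2950 ± 58.8 in Parental EV. Resistant libraries carry a library series of their own in the labels, so wherever Resistant cells are set against another state, the state and the series cannot be told apart. DTP EV replicate 1 stood apart from its group: chi-square per degree of freedom was 56.7 and 56.0 against replicates 2 and 3, which gave 17.2 against each other, and it held the lowest DTP EV value for all 10 genes. Since these are bulk RNA samples, fewer cells of a type and less RNA per cell cannot be told apart.

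**Figure D1:**
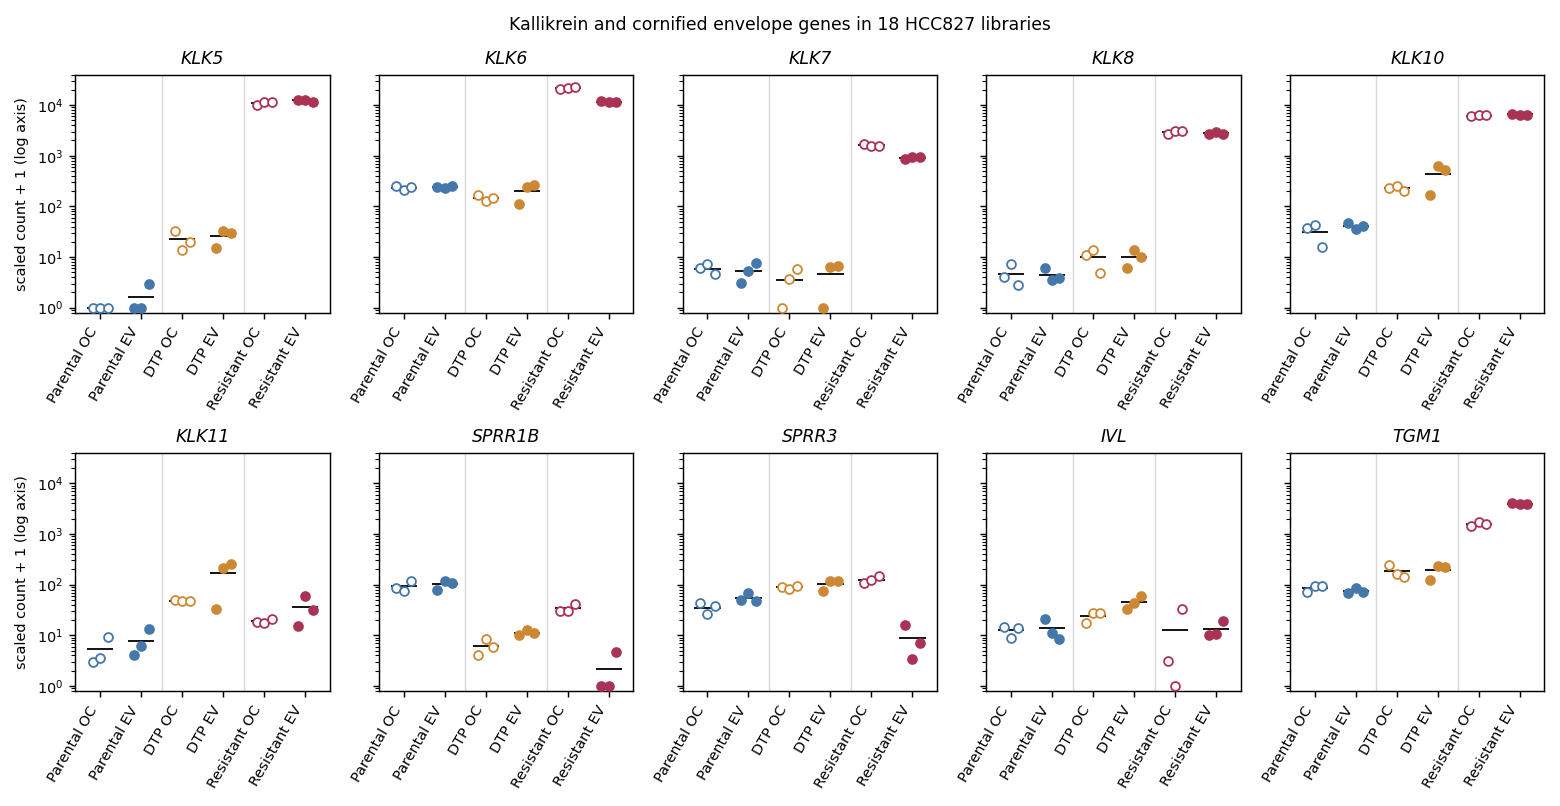
Scaled count + 1 (log axis) of each gene in every library, by group, with open points for OC, filled points for EV and a black line at the mean of 3 libraries. KLK5, KLK6, KLK7, KLK8, KLK10 and TGM1 are far higher in the 6 Resistant libraries than in the other 12. By mean, SPRR1B and SPRR3 are lowest in Resistant EV and KLK11 is highest in DTP EV. In KLK11 the lowest DTP EV library (31.8) lies below every DTP OC library (45.8 to 48.9).

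In Resistant EV cells the kallikreins and TGM1 were higher than in Parental EV, where KLK6, TGM1 and KLK10 were already present at 241, 75.4 and 40.0 scaled counts on average. SPRR1B and SPRR3 were lower, and IVL was low in both groups. Of the 10 genes, 7 rose (all 6 kallikreins and TGM1), 2 fell (SPRR1B and SPRR3) and IVL did not pass the test. KLK7 is among the 7, but it passed the filter on low counts through its Resistant libraries alone and had to differ. In this comparison 38.5% of all tested genes were called higher and 43.7% lower, 82.2% in all, so being called says little by itself and the sizes carry the description. The median log2 difference was 5.65 over the 10 genes and -0.10 over all tested genes, and the groups did not overlap for 9 of the 10, against 84.6% of all tested genes. These genes were picked with earlier results known, so the median describes them and tests nothing. The 10 genes together took 0.0914 to 0.117% of all counts across the 6 Resistant libraries, against 0.00135 to 0.00453% across the remaining 12.

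KLK5, the protease at the head of the epidermal cascade, had 12704.5, 12672 and 11647 scaled counts in Resistant EV replicates 1 to 3, against 0, 0 and 1.91 in Parental EV. All 3 Resistant EV libraries were high, and the Parental EV group held 2 counts in total against 33524. The ratio of the scaled sums was 19792, with an exact Poisson interval from 5479 to 163434 that covers counting error only. The log2 difference of 13.08 (SE 0.39, adjusted p = 8.47e-15) ranked 6 among the 15211 genes, and it depends on the pseudocount: with 0.1 in place of 1 it was 15.47.

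KLK7, which KLK5 activates and which cuts corneodesmosin, had 859, 930 and 921 in Resistant EV and 2.03, 4.30 and 6.68 in Parental EV. The difference was 7.51 on the log2 scale (182-fold, SE 0.66, adjusted p = 1.27e-08). KLK7 passed the filter on low counts through its Resistant libraries alone, since 0 of the other 12 libraries had 10 counts. It had to differ, so its call supports nothing and the values only describe it. KLK8, a protease first described in brain and also secreted in epidermis, had 2737, 2906 and 2624 in Resistant EV and 5.06, 2.58 and 2.86 in Parental EV (log2 9.30, SE 0.41, adjusted p = 1.08e-12). Its exons share positions with those of AC011473.4, a gene on the same strand that had 6.68 scaled counts in Resistant EV. How many KLK8 reads fall on the shared positions was not measured.

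KLK6, a trypsin-like protease, had the highest level of these kallikreins in Parental EV. It had 11931, 11677 and 11394 in Resistant EV, against 238, 232 and 252 in Parental EV. That is 48.3-fold higher (log2 5.59, SE 0.22, adjusted p = 2.17e-13). KLK10, which is expressed in normal breast epithelium and often lost in breast cancer, had 6617, 6501 and 6431 in Resistant EV and 45.6, 34.4 and 40.1 in Parental EV (log2 7.32, SE 0.38, adjusted p = 1.3e-11). For both genes every Resistant EV library was far above every Parental EV library. Antisense genes overlap exons of KLK5, KLK6 and KLK10, and the strand setting of the counting is not given in the sources used here, so antisense reads cannot be separated.

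KLK11, a trypsin-like protease, had the smallest log2 difference of the 6 kallikreins in resistant cells. It had 14.1, 59.8 and 30.4 in Resistant EV, against 3.04, 5.16 and 12.4 in Parental EV, a 4.42-fold difference (log2 2.14, SE 0.70, adjusted p = 0.0096). The groups do not overlap, but the lowest Resistant EV library lay close to the highest Parental EV one. The call was lost without Resistant EV replicate 2 (log2 1.64, adjusted p = 0.0563) and with voom weights (adjusted p = 0.145).

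TGM1, which cross-links the envelope proteins, had 4086, 3915 and 3883 in Resistant EV and 68.9, 86.8 and 70.6 in Parental EV. The 52.1-fold rise (log2 5.70, SE 0.23, adjusted p = 3.21e-13) was of the size seen for KLK6. None of the 3 precursors it could join was called higher. SPRR1B, a precursor also known as cornifin, had 0, 0 and 3.64 in Resistant EV, against 76.0, 119 and 105 in Parental EV. The sums were 3 counts and 324, a ratio of 0.0109 with a counting interval from 0.00224 to 0.0322, and the log2 difference was -5.90 (SE 0.49, adjusted p = 6.17e-09). Without Resistant EV replicate 3, the one library with a count, it was -6.65.

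SPRR3, a precursor typical of the oesophagus, had 15.0, 2.44 and 6.07 in Resistant EV and 48.6, 66.2 and 45.8 in Parental EV. It fell 7.37-fold (log2 -2.88, SE 0.41, adjusted p = 5.29e-06), and every Resistant EV library was below every Parental EV library. IVL had 9.37, 9.77 and 18.2 in Resistant EV, within the span of 20.3, 10.3 and 7.63 in Parental EV (log2 0.02, SE 0.84, adjusted p = 0.989). At 33 and 40 counts over the 3 libraries of each group, a change of IVL smaller than its spread was not detectable.

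**Figure D2:**
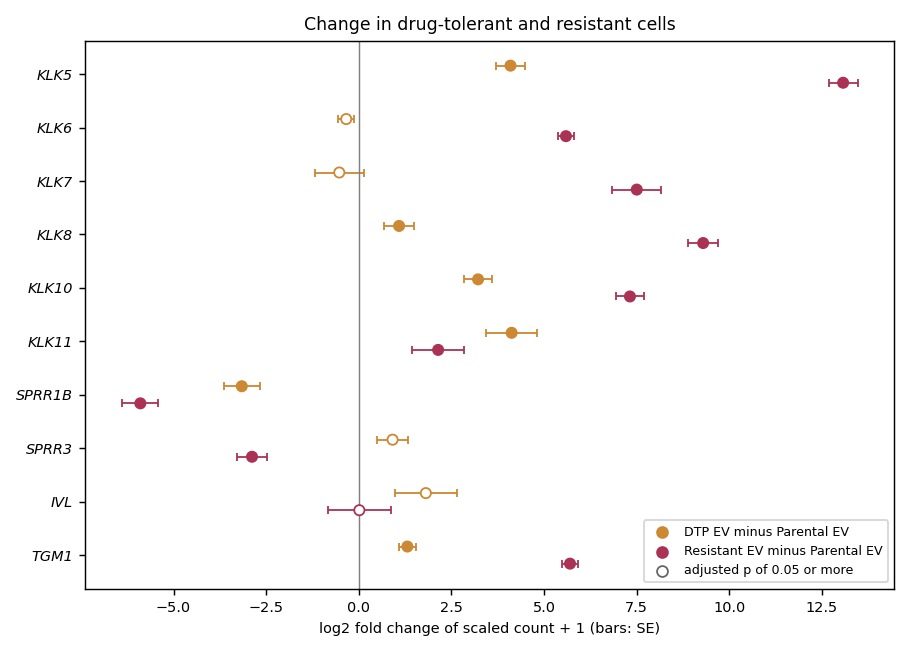
Log2 difference of scaled count + 1 (x axis, bars are SE) from Parental EV for each gene, with DTP EV in orange and Resistant EV in red. Filled points passed an adjusted p of 0.05; the Resistant EV points run from -5.90 for SPRR1B to 13.08 for KLK5.

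In drug-tolerant cells KLK5, KLK8, KLK10, KLK11 and TGM1 rose, SPRR1B fell, and KLK6, KLK7, SPRR3 and IVL gave no call. KLK11 averaged 166 scaled counts in DTP EV, more than the 34.7 of Resistant EV, whereas KLK5, KLK8, KLK10 and TGM1 were lower in DTP EV than in Resistant EV. That is 5 of the 10 genes higher, where 28.7% of all tested genes were, and 1 lower, where 28.2% were. The median log2 difference was 1.20 over the 10 and 0 over all genes, and 7 of the 10 did not overlap between groups, against 64.1% of all tested genes. In either direction 56.9% of all tested genes were called. The comparison shares its Parental EV libraries with the one above, so the values of the 2 comparisons are given side by side and are not independent.

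KLK10 had 168, 623 and 520 in DTP EV, against 45.6, 34.4 and 40.1 in Parental EV (9.33-fold, log2 3.22, SE 0.38, adjusted p = 2.19e-06). KLK11 had 31.8, 209 and 258 in DTP EV, against 3.04, 5.16 and 12.4 in Parental EV (17.5-fold, log2 4.13, SE 0.70, adjusted p = 8.67e-05). In both genes replicate 1 was several-fold below replicates 2 and 3 yet above every Parental EV library, and without it the log2 differences were 3.81 for KLK10 and 5.07 for KLK11.

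KLK5 had 13.9, 31.3 and 29.3 in DTP EV and 0, 0 and 1.91 in Parental EV, or 70 counts against 2. The ratio of scaled sums was 39.2, with a counting interval from 10.5 to 330 (log2 4.10, SE 0.39, adjusted p = 1.78e-07). KLK8 had 4.96, 12.5 and 9.01 in DTP EV, against 5.06, 2.58 and 2.86 in Parental EV. Its call (log2 1.09, SE 0.41, adjusted p = 0.0304) rests on 25 and 11 counts with overlapping groups, and it was lost without Parental EV replicate 2 (adjusted p = 0.0991) or 3 (0.0841), without DTP EV replicate 2 (0.133) or 3 (0.0744), and in 3 further alternatives.

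KLK6 had 109, 242 and 259 in DTP EV and 238, 232 and 252 in Parental EV (log2 -0.34, SE 0.22, adjusted p = 0.196). Replicates 2 and 3 sat at the Parental EV level, and the direction depends on single libraries: the log2 difference was 0.06 without DTP EV replicate 1 and -0.56 without replicate 3 (adjusted p = 0.0366). KLK7 stayed at 0 to 5.63 scaled counts in DTP EV and 2.03 to 6.68 in Parental EV, too few to show a difference.

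TGM1 had 125, 235 and 225 in DTP EV, against 68.9, 86.8 and 70.6 in Parental EV (2.48-fold, log2 1.31, SE 0.23, adjusted p = 0.000108). SPRR1B had 8.94, 11.5 and 10.1 in DTP EV, against 76.0, 119 and 105 in Parental EV, an 8.93-fold fall (log2 -3.16, SE 0.49, adjusted p = 3.64e-05) that all 3 libraries shared. SPRR3 and IVL pointed the other way without a call. SPRR3 had 72.5, 117 and 119 in DTP EV and 48.6, 66.2 and 45.8 in Parental EV (log2 0.91, adjusted p = 0.0673). IVL had 32.8, 42.8 and 59.7 in DTP EV and 20.3, 10.3 and 7.63 in Parental EV (log2 1.81, adjusted p = 0.0786). In neither gene did the groups overlap, and both passed the threshold with voom weights (0.0106 and 0.0134) and when only the 2 groups were fitted (0.0327 and 0.0136).

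Set directly against drug-tolerant cells, resistant cells were higher in KLK5, KLK6, KLK7, KLK8, KLK10 and TGM1 and lower in KLK11, SPRR1B and SPRR3. Here too KLK7, tested only because of its counts in Resistant libraries, had to differ, so its call supports nothing. Of all tested genes, 37.5% were called higher in Resistant EV than in DTP EV and 43.1% lower, 80.6% in all, and the groups did not overlap for 9 of the 10 genes and for 78.6% of all. The log2 differences ran from 4.10 for KLK10 (17.1-fold) and 4.39 for TGM1 (21.0-fold) to 8.98 for KLK5 (505-fold). SPRR3 fell by 3.80 (adjusted p = 1.99e-07) and SPRR1B by 2.74 (adjusted p = 7.14e-05; 3 counts in Resistant EV against 29 in DTP EV, ratio 0.109 with a counting interval from 0.0212 to 0.351). KLK11 was 3.96-fold lower (log2 -1.98, adjusted p = 0.0154), but Resistant EV and DTP EV overlapped, and the call was lost without DTP EV replicate 2 (0.0714) or 3 (0.0884) or Resistant EV replicate 1 (0.0827). IVL missed the threshold (log2 -1.80, adjusted p = 0.0607).

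Divided by the exon length of each gene in GENCODE release 29, the order of levels also differed between states. In Resistant EV the order was KLK5 (7466 scaled counts per kilobase), KLK6 (5905), KLK10 (1691), KLK8 (1477), TGM1 (1061) and KLK7 (371), with KLK11 (11.2), IVL (5.78), SPRR3 (5.44) and SPRR1B (1.96) far below. In DTP EV it was KLK10 (113), KLK6 (103), SPRR3 (71.4), KLK11 (53.4) and TGM1 (52.2), then IVL (20.9), SPRR1B (16.4), KLK5 (15.0), KLK8 (4.74) and KLK7 (1.49). In Parental EV the precursor SPRR1B led (161), before KLK6 (122), SPRR3 (37.1), TGM1 (20.2), KLK10 (10.4) and IVL (5.91). KLK11 (2.21), KLK8 (1.88), KLK7 (1.78) and KLK5 (0.385) closed that order. Neighbours whose libraries overlapped were KLK11, IVL, SPRR3 and SPRR1B in Resistant EV. In DTP EV each neighbour overlapped the next among KLK10, KLK6, SPRR3, KLK11 and TGM1, and among IVL, SPRR1B and KLK5. In Parental EV SPRR1B overlapped KLK6, and each neighbour overlapped the next among KLK10, IVL, KLK11, KLK8, KLK7 and KLK5. KLK5 stood above KLK6, and KLK10 above KLK8, in every Resistant EV library.

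**Figure D3:**
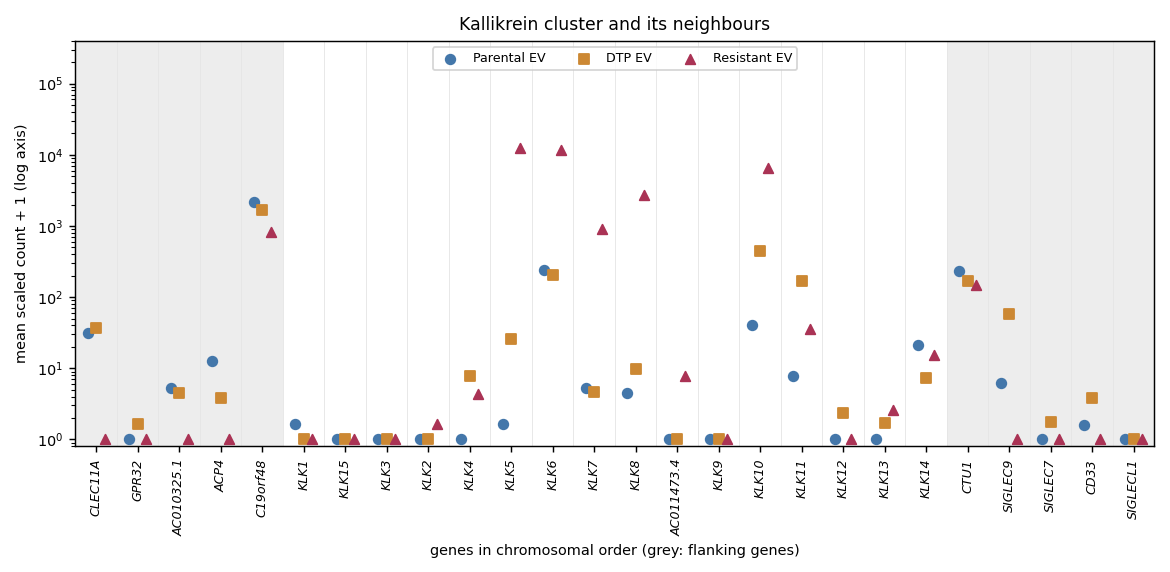
Mean scaled count + 1 (log axis, n = 3 libraries) of the genes from KLK1 to KLK14 in chromosomal order, with 5 flanking genes on each side in grey, for Parental EV, DTP EV and Resistant EV. The high Resistant EV points lie from KLK5 to KLK10, with AC011473.4 (6.68) and KLK9 (0) low between them. Of the 6 tested flanking genes 0 were called higher in Resistant EV than in Parental EV.

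The 6 kallikreins are neighbours. In chromosomal order of the GENCODE annotation the cluster runs from KLK1 to KLK14 and holds 16 genes, of which 8 were tested. Among these 8 the 6 kallikreins above and AC011473.4, which overlaps KLK8, were called higher in Resistant EV than in Parental EV. KLK7 and AC011473.4 were tested because of their counts in Resistant libraries and had to differ, so the count describes the cluster and supports nothing. KLK14, at the far end, gave no call (14.2 ± 8.99 in Resistant EV against 20.1 ± 1.06 in Parental EV, log2 -0.63, adjusted p = 0.4). KLK9, which lies between KLK8 and KLK10, was listed at 0 in all 18 libraries. Of the 10 nearest genes outside, 6 were tested, 0 were higher and 5 were lower, with a median of -1.97: C19orf48 had 822 scaled counts in Resistant EV against 2143 in Parental EV, and CTU1 had 146 against 234. In drug-tolerant cells 4 of the 8 cluster genes were higher and KLK14 was lower (6.21 ± 4.45 in DTP EV against 20.1 ± 1.06 in Parental EV, adjusted p = 0.037). The window and its flanking genes were chosen after these values had been seen. Of all tested genes, 38.5% were higher and 43.7% lower in Resistant EV than in Parental EV, and 28.7% and 28.2% in DTP EV.

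With cATF6 overexpression in resistant cells, the precursors SPRR1B and SPRR3 and the protease KLK6 rose, and TGM1 fell. The other 6 genes gave no call. In Resistant OC against Resistant EV 16.3% of all tested genes were called higher and 20.4% lower. The median log2 difference over the 10 genes was -0.000715, with changes in both directions, and it was -0.02 over all genes. The groups did not overlap in 7 of the 10 and in 44.7% of all tested genes, of which 36.7% were called.

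SPRR1B had 28.7, 28.7 and 41.4 scaled counts in Resistant OC and 0, 0 and 3.64 in Resistant EV, or 97 counts against 3. The ratio of sums was 30.3, with a counting interval from 10.1 to 150 (log2 4.32, SE 0.49, adjusted p = 4.5e-06). Leaving out Resistant EV replicate 3 gave 5.08. SPRR3 had 105, 121 and 149 in Resistant OC, against 15.0, 2.44 and 6.07 in Resistant EV (17.1-fold, log2 4.09, SE 0.41, adjusted p = 1.16e-06). Among all tested genes these 2 rises ranked 9 and 15. Both precursors were separated cleanly between the groups, and the Resistant OC level of SPRR3 was above the 48.6, 66.2 and 45.8 of Parental EV, whereas that of SPRR1B was below its 76.0, 119 and 105.

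TGM1 had 1429, 1711 and 1566 in Resistant OC, against 4086, 3915 and 3883 in Resistant EV, a 2.53-fold fall (log2 -1.34, SE 0.23, adjusted p = 0.000226). KLK6 had 21126, 21942 and 23026 in Resistant OC, against 11931, 11677 and 11394 in Resistant EV, a 1.89-fold rise (log2 0.92, SE 0.22, adjusted p = 0.00322). KLK7 had 1708, 1547 and 1545 in Resistant OC and 859, 930 and 921 in Resistant EV. Its groups were as cleanly apart as those of KLK6, yet the fit gave an adjusted p of 0.362 (log2 0.82, SE 0.66). Its standard error pools all 18 libraries, and KLK7 had 0 to 6.68 scaled counts in 12 of them. Fitted on the 2 groups alone it passed (adjusted p = 0.00117), as it did with voom weights (1.29e-06).

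KLK5, KLK8, KLK10 and KLK11 gave no call with cATF6 in resistant cells. KLK5 ran from 9955 to 11567 in Resistant OC and from 11647 to 12704.5 in Resistant EV (log2 -0.17, adjusted p = 0.786). KLK8 differed by 0.08, KLK10 by -0.08 and KLK11 by -0.70 on the log2 scale, with adjusted p of 0.926, 0.918 and 0.472. The KLK5 and KLK10 groups did not overlap, and KLK11 averaged 17.8 in Resistant OC against 34.7 in Resistant EV. IVL was uneven, with 2.13, 0 and 32.4 in Resistant OC against 9.37, 9.77 and 18.2 in Resistant EV (log2 -1.45, adjusted p = 0.2). Without Resistant OC replicate 3, its one high library, the log2 difference was -2.86 (adjusted p = 0.000833).

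**Figure D4:**
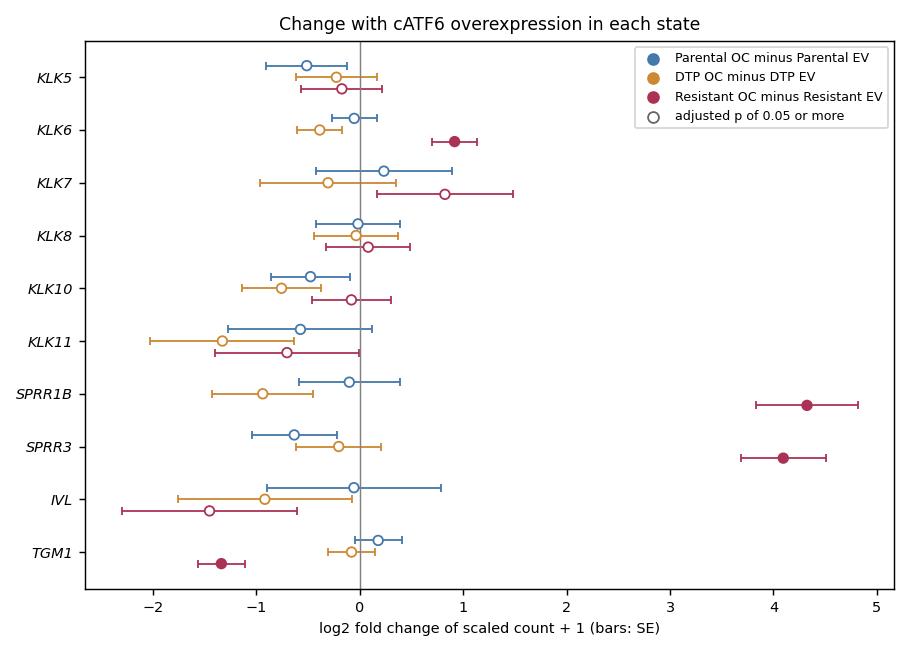
Log2 difference of scaled count + 1 (x axis, bars are SE) between OC and EV in each state, for each gene. Filled points passed an adjusted p of 0.05: SPRR1B (4.32), SPRR3 (4.09), KLK6 (0.92) and TGM1 (-1.34), all in Resistant cells.

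In DTP and Parental cells none of the 10 genes passed limma's test for cATF6, and 0 had an unadjusted p under 0.05 in either state; voom weights also called 0 in each. Of all tested genes, 18.2% were called in DTP OC against DTP EV (9.49% higher, 8.76% lower) and 14% in Parental OC against Parental EV (5.99% higher, 8% lower). In DTP cells the lowest p belonged to KLK10, with 225, 252 and 198 in DTP OC and 168, 623 and 520 in DTP EV (log2 -0.76, SE 0.38, adjusted p = 0.191). KLK11 had 48.9, 45.8 and 47.0 in DTP OC and 31.8, 209 and 258 in DTP EV (log2 -1.33, SE 0.70, adjusted p = 0.207), and KLK6 had 164, 128 and 145 in DTP OC and 109, 242 and 259 in DTP EV (log2 -0.39, SE 0.22, adjusted p = 0.237). In each of these the EV group spans the OC values only through replicate 1. Without DTP EV replicate 1, KLK6 (log2 -0.79, adjusted p = 1.29e-05), KLK10 (-1.35, 0.00187) and KLK11 (-2.28, 0.0078) were all called lower in DTP OC. SPRR1B and IVL were the 2 genes whose groups did not overlap, against 29.1% of all tested genes. SPRR1B stood apart with 3.05, 7.33 and 4.80 in DTP OC and 8.94, 11.5 and 10.1 in DTP EV (log2 -0.94, adjusted p = 0.204), and IVL with 16.3, 26.6 and 26.9 in DTP OC and 32.8, 42.8 and 59.7 in DTP EV (log2 -0.92, adjusted p = 0.503).

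In Parental cells the log2 differences of the 10 genes ran from -0.63 (SPRR3) to 0.23 (KLK7). KLK6 had 232 ± 22.4 in Parental OC and 241 ± 10.2 in Parental EV, and TGM1 had 85.8 ± 14.3 and 75.4 ± 9.87, in the same order (SD, n = 3). KLK10 averaged 30.9 in Parental OC against 40.0 in Parental EV, and KLK11 4.31 against 6.87. SPRR3 was the one gene without overlap, against 48.4% of all tested genes, with 41.6, 25.4 and 36.1 in Parental OC and 48.6, 66.2 and 45.8 in Parental EV (log2 -0.63, SE 0.41, adjusted p = 0.362).

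Whether the cATF6 effect differed between states was tested with interaction terms. The cATF6 effect in Resistant cells exceeded that in Parental cells for SPRR3 (by 4.73 on the log2 scale, adjusted p = 1.47e-05), SPRR1B (4.43, 0.000158) and KLK6 (0.97, 0.024), and was lower for TGM1 (-1.52, 0.00189). Against DTP cells the same 4 genes differed, by 5.26 for SPRR1B (adjusted p = 3.13e-05), 4.30 for SPRR3 (3.81e-05), 1.30 for KLK6 (0.00393) and -1.26 for TGM1 (0.00692). Of all tested genes, 30.2% were called in the test against Parental cells (14.2% higher, 16.1% lower) and 30.4% in that against DTP cells (13.7% higher, 16.7% lower). None of the 10 genes was called for a difference between DTP and Parental cells, where 9.9% of all genes were (5.45% higher, 4.45% lower). The KLK6 difference from Parental cells is the weakest: it was lost without Parental EV replicate 3 (adjusted p = 0.0504) or Parental OC replicate 2 (0.0587) and with quantile normalization (0.0573).

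**Figure D5:**
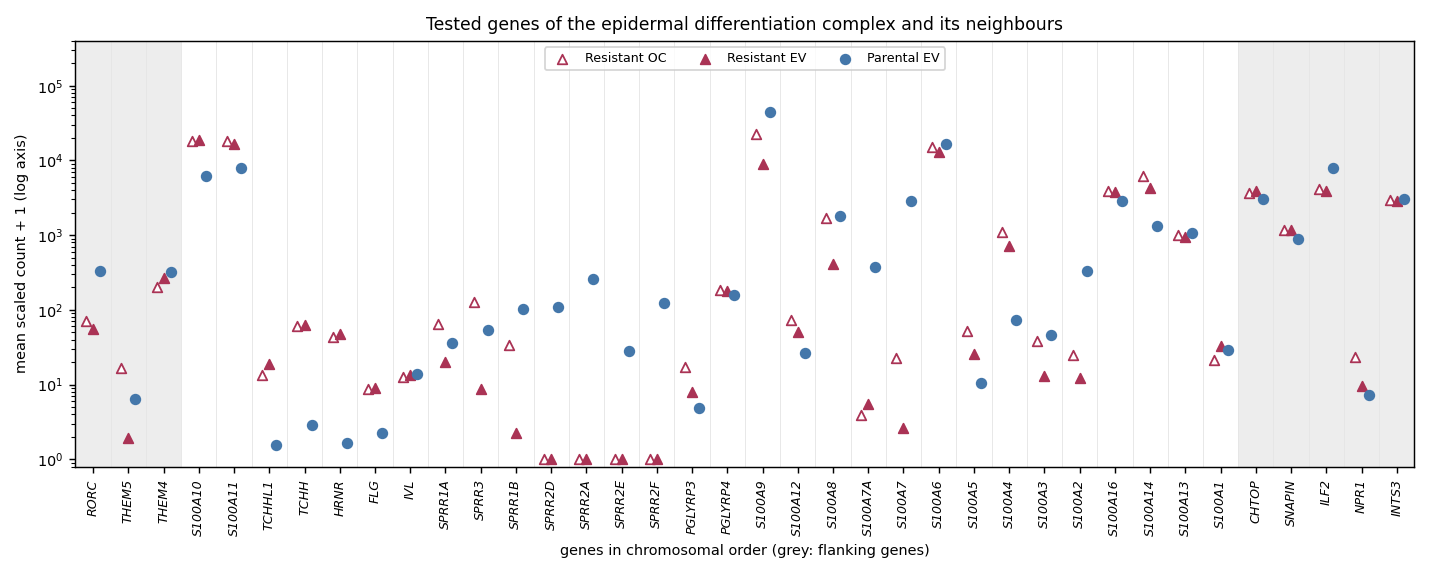
Mean scaled count + 1 (log axis, n = 3 libraries) of the tested genes of the epidermal differentiation complex in chromosomal order, with flanking genes in grey, in Resistant OC (open triangles), Resistant EV (filled triangles) and Parental EV (blue). SPRR3, SPRR1B, SPRR1A, S100A8 and S100A9 lie higher in Resistant OC than in Resistant EV, and the SPRR2 genes are at 0 in both.

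SPRR1B, SPRR3 and IVL lie in the epidermal differentiation complex on chromosome 1, a run of genes for envelope and calcium-binding proteins. Of its 64 genes in the table, 30 were tested and 23 had no count in any library. SPRR2A, SPRR2D, SPRR2E and SPRR2F, among the 30, were listed at 0 in Resistant OC and Resistant EV. They could not be called in either direction between these groups. With cATF6 in resistant cells 10 of the 30 were called higher, 0 lower and 20 not called (median 0.16), where 16.3% of all tested genes were higher and 20.4% lower, and 1 of 8 tested flanking genes was higher and 1 lower. Besides SPRR1B and SPRR3 these included SPRR1A, a close relative of SPRR1B (63.8 ± 16.3 in Resistant OC against 19.0 ± 3.86 in Resistant EV, log2 1.68, adjusted p = 0.00325), and the antimicrobial calcium-binding genes S100A8 (1669 ± 117 against 413 ± 35.6, log2 2.01, adjusted p = 1.12e-05) and S100A7 (21.4 ± 11.4 against 1.63 ± 2.82, log2 3.48, adjusted p = 0.000746). In DTP EV against Parental EV, 3 of the 30 were higher and 17 lower (median -1.21), where 28.7% and 28.2% of all tested genes were. In Resistant EV against Parental EV 8 were higher and 12 lower (median -0.09), where 38.5% and 43.7% of all tested genes were. This window too was set after the values had been seen, and SPRR genes are near-identical enough that reads may be shared between them.

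Among the other cornified envelope precursors, 16 of 42 listed genes in the table were tested and 16 had no count in any library, among them LOR, which encodes loricrin, the main envelope protein of the epidermis. In Resistant EV against Parental EV 7 were higher and 6 lower, with a median log2 difference of 0.87 against -0.10 over all genes. Of all tested genes, 38.5% were higher and 43.7% lower there, and 28.7% and 28.2% in DTP EV. Among the proline-rich genes, SPRR2A was listed at 0 in Resistant EV against 259 ± 3.35 in Parental EV, SPRR2F at 0 against 124 ± 6.47 and SPRR2D at 0 against 107 ± 20.8. PI3, an elastase inhibitor that is also cross-linked into the envelope, rose to 5847 ± 338 in Resistant EV, against 410 ± 14.7 in Parental EV (log2 3.83, adjusted p = 8.96e-14). In DTP EV 2 were higher and 6 lower, with SPRR2A at 5.77 ± 5.34 (log2 -5.54), SPRR2F at 0.751 ± 1.30 (log2 -6.40), SPRR2D at 19.4 ± 3.04 (log2 -2.39) and PI3 at 29.8 ± 0.496 (log2 -3.74). With cATF6 in resistant cells 2 rose (SPRR1A and CSTA) and 0 fell, where 16.3% and 20.4% of all tested genes did. SPRR2A, SPRR2D, SPRR2E and SPRR2F, at 0 in both groups, could not be called.

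TGM1 rose in Resistant EV against Parental EV, and the other 3 transglutaminases tested, of 7 listed, all fell. Of all tested genes, 38.5% were called higher and 43.7% lower there. TGM2, the widely expressed tissue transglutaminase, had 9039 ± 280 in Resistant EV against 20752 ± 444 in Parental EV (log2 -1.20, adjusted p = 1.42e-09), and 4642 ± 870 in DTP EV (log2 -2.18). TGM5, a transglutaminase of upper epidermis, had 7.52 ± 6.47 in Resistant EV against 108 ± 15.8 in Parental EV (log2 -3.99, adjusted p = 3.89e-07). No difference between TGM1 and the others was tested.

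Of 20 genes that activate or inhibit these proteases, 14 were tested, and in Resistant EV 7 were higher and 7 lower than in Parental EV. The shares of all tested genes were 38.5% higher and 43.7% lower there, and 28.7% and 28.2% in DTP EV. With cATF6 in resistant cells they were 16.3% and 20.4%. SPINK5, the gene of the KLK5 and KLK7 inhibitor LEKTI, had 2.03 ± 3.52 in Resistant EV against 96.1 ± 15.9 in Parental EV (log2 -5.65, SE 0.64, adjusted p = 3.28e-07). The serpin genes SERPINA3, SERPINA4 and SERPINA5 fell too. SERPINA3 had 18.1 ± 25.1 in Resistant EV against 3747 ± 158 in Parental EV, SERPINA4 was listed at 0 against 122 ± 5.43, and SERPINA5 had 0.814 ± 1.41 against 794 ± 51.8. In DTP EV 2 genes of the list were higher and 6 lower. SPINK5 gave no call there (135 ± 73.8 in DTP EV against 96.1 ± 15.9 in Parental EV, adjusted p = 0.726). With cATF6 in resistant cells 4 rose and 2 fell, among them SPINK5 (9.42 ± 4.44 in Resistant OC against 2.03 ± 3.52 in Resistant EV, log2 2.33, adjusted p = 0.00866) and SERPINA3 (158 ± 31.2 against 18.1 ± 25.1, log2 4.11, adjusted p = 0.000195), which both rose.

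Of 10 tested genes of desmosomal proteins, among which are substrates of kallikreins, 3 were higher and 6 lower in Resistant EV than in Parental EV, where 38.5% and 43.7% of all tested genes were. DSC3, a desmocollin of stratified epithelia, was listed at 0 in Resistant EV against 238.9 ± 18 in Parental EV, DSC2 had 602 ± 110 against 2803 ± 148, and DSG2 had 4985 ± 232 against 21122 ± 560. DSP, the desmosomal plaque protein desmoplakin, rose to 29942 ± 794, against 8803 ± 51.1 in Parental EV. In DTP EV 3 were higher and 3 lower, where 28.7% and 28.2% of all tested genes were. DSC3 was among the higher ones (1123 ± 293 against 238.9 ± 18, log2 2.20). With cATF6 in resistant cells 5 rose and 0 fell, where 16.3% and 20.4% of all tested genes did. DSC3 and DSG1, at 0 in both Resistant groups, could not be called. Among the 5 that rose were DSC2 (1140 ± 52.2 in Resistant OC against 602 ± 110 in Resistant EV, log2 0.94) and DSG2 (7430 ± 340 against 4985 ± 232, log2 0.58).

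Of 19 transcription factors of terminal epidermal differentiation, all tested, 13 were higher and 4 lower in Resistant EV than in Parental EV. In DTP EV 6 were higher and 9 lower. Of all tested genes, 38.5% were higher and 43.7% lower in Resistant EV, and 28.7% and 28.2% in DTP EV. ZNF750, which drives late keratinocyte differentiation, had 1231 ± 108 in Resistant EV and 0 in DTP EV, against 4.05 ± 2.39 in Parental EV (log2 8.03 and -2.23). Its Parental EV and DTP EV levels were both near 0, so these log2 values rest on few counts and the DTP EV fall says little. MAF, a basic leucine zipper factor, had 6.51 ± 11.3 in Resistant EV against 61.2 ± 7.28 in Parental EV (log2 -4.50). HOPX had 313 ± 222 in DTP EV against 4.93 ± 5.28 in Parental EV (log2 5.90, SE 1.10, adjusted p = 0.000232). With cATF6 in resistant cells 4 rose and 6 fell, where 16.3% and 20.4% of all tested genes did. Of 10 tested enzymes that make or process barrier lipids, 3 were higher and 5 lower in Resistant EV than in Parental EV. ABCA12, the lipid transporter of the skin barrier, had 532 ± 10.8 against 13511 ± 323 (log2 -4.66), and ALOXE3, a lipoxygenase, had 66.1 ± 8.52 against 383 ± 25.6 (log2 -2.52), while SULT2B1, which sulphates cholesterol, had 264 ± 35.1 against 86.9 ± 2.65 (log2 1.58). SMPD1, acid sphingomyelinase, had 576 ± 28.5 against 926 ± 33.6 (log2 -0.68) and rose in DTP EV (3323 ± 635, log2 1.82). In DTP EV 2 lipid enzymes were higher and 4 lower, and ABCA12 rose with cATF6 in resistant cells (1046 ± 55.7 in Resistant OC against 532 ± 10.8 in Resistant EV, log2 0.97).

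Markers of squamous epithelium went both ways. Against Parental EV, 38.5% of all tested genes were called higher and 43.7% lower in Resistant EV, and 28.7% and 28.2% in DTP EV. Among the basal squamous markers, of which 8 of 10 were tested, 5 were higher and 2 lower in Resistant EV, and 4 higher and 3 lower in DTP EV, than in Parental EV. The summed level ran from 9936 to 10933 scaled counts in Resistant EV and 1957 to 4197 in DTP EV, against 2266 to 2538 in Parental EV. KRT17 had 4899 ± 355 in Resistant EV and 868 ± 435 in DTP EV, against 19.1 ± 5.14 in Parental EV. KRT16 had 3053 ± 243 and 330 ± 237, against 39.0 ± 7.92, in the same order. KRT6B had 480 ± 15.4 in Resistant EV against 1.15 ± 1.98 in Parental EV. It passed the filter on low counts through its Resistant libraries alone and had to differ, so its rise supports nothing. TP63, the basal lineage factor, fell to 27.7 ± 14.5 in Resistant EV, against 468 ± 42.1 in Parental EV, and DSC3 was among the lower ones as given above. KRT5, the defining basal keratin, was at 0 in Resistant EV and at 2.94 ± 2.57 in Parental EV. Of the suprabasal markers 6 of 11 were tested, with 3 higher and 1 lower in Resistant EV and 1 of each in DTP EV. Their summed level was 1456 to 1568 in Resistant EV and 1244 to 3174 in DTP EV, against 721 to 805 in Parental EV. KRT13 had 130 ± 38.7 in Resistant EV against 10.1 ± 3.13 in Parental EV, and KRT4 had 680 ± 51.4 in Resistant EV and 2029 ± 1222 in DTP EV, against 225 ± 9.39. DSG1 was listed at 0 in Resistant EV against 48.2 ± 9.35 in Parental EV. The epidermal genes KRT1, KRT2 and LOR were at or near 0 in every group. KRT10, on the same list, was present in all groups, with 577 ± 60.7 in Resistant EV and 412 ± 127 in DTP EV, against 428 ± 57.0 in Parental EV.

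The markers of lung and gland epithelium, the origin that the labels give, went both ways. NKX2-1, the lineage factor of lung glandular epithelium, had 24.8 ± 6.35 in Resistant EV against 2555 ± 40.2 in Parental EV, and its target NAPSA had 23.1 ± 5.98 against 6052 ± 54.3. In DTP EV both were still present, at 3616 ± 604 and 3364 ± 836. The general gland keratins KRT8 (435407 ± 6870.4 in Resistant EV against 66012 ± 1216 in Parental EV) and KRT18 (242617 ± 4404 against 51726 ± 792) rose, as did MUC1 (15312 ± 351 against 4614 ± 212) and SFTPD (45.5 ± 10.5 against 3.41 ± 1.37). SFTPD passed the filter on low counts through its Resistant libraries alone and had to differ, so its rise supports nothing. On the same list SFTPA1, SFTPA2, SFTPB and EPCAM had lower means in Resistant EV than in Parental EV. SFTPA1 had 0.625 ± 1.08 against 14.2 ± 2.65, and SFTPA2 had 10.9 ± 6.69 against 44.6 ± 7.38, in the same order. SFTPB had 1.62 ± 2.81 against 21.99 ± 6.04, and EPCAM had 9584 ± 377 against 12935 ± 242. Of the 13 gland and lung markers tested, 6 were higher and 6 lower in Resistant EV, and 2 higher and 5 lower in DTP EV. The shares of all tested genes were 38.5% and 43.7% in Resistant EV, and 28.7% and 28.2% in DTP EV. The summed level of the markers was 867733 to 895393 in Resistant EV and 247459 to 274046 in DTP EV, against 269021 to 276168 in Parental EV. The Resistant EV sum was mostly KRT8 and KRT18, so it says little about the lung markers on the list.

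Markers of cells from outside the line also differed. The part of these markers, and of the squamous and gland markers above, in the kallikrein and envelope results was not tested. Against Parental EV, 38.5% of all tested genes were called higher and 43.7% lower in Resistant EV, and 28.7% and 28.2% in DTP EV. Of 5 leukocyte markers tested, 3 were higher and 1 lower in Resistant EV than in Parental EV, and 0 higher and 4 lower in DTP EV. Their sum of 45518 to 47469 in Resistant EV, against 5521 to 5713 in Parental EV, was mostly CD68 (44770 ± 1070), a lysosomal protein, with CSF1R at 1032 ± 37.8 and CD14 at 403 ± 38.2, and the defining genes PTPRC, CD3E and MS4A1 were at or near 0. Of 6 fibroblast markers 1 was higher and 0 lower in Resistant EV, and 3 higher in DTP EV. The 1 was PDGFRB. It passed the filter on low counts only through its Resistant libraries and had to differ, so its rise supports nothing. The sum of 11675 to 12211 in Resistant EV, against 533 to 570 in Parental EV, was mostly PDGFRB (11240 ± 201 against 2.07 ± 2.15), while COL1A1 had 631 ± 44.8 and COL3A1 and LUM 6.87 ± 11.9 and 4.37 ± 7.58 in Resistant EV. Of 4 endothelial markers 2 were higher and 1 lower in Resistant EV, and 3 higher and 1 lower in DTP EV. Their sum was 564 to 658 in Resistant EV against 151 to 184 in Parental EV, with CDH5 at 462 ± 69.8 against 19.7 ± 6.65 and PECAM1 at 127 ± 12.6 against 140 ± 6.90. With cATF6 in resistant cells 1 of the tested markers in each of these 3 lists was called higher and 0 lower. The shares of all tested genes were 16.3% and 20.4%. PDGFRB, without a call, had 4084 ± 336 in Resistant OC against 11240 ± 201 in Resistant EV (log2 -1.46, adjusted p = 0.0911), and the fibroblast sum was 4608 to 5336 in Resistant OC against 11675 to 12211 in Resistant EV.

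The genes whose profiles over the 18 libraries lay nearest to each of 9 of the 10 were found from the root-mean-square difference of centred log2 levels. KLK6 was nearest to NMB (0.28, Pearson's r 0.996), STAP2 and CACNA1I, and KLK8 to FYB1 (0.44, r 0.995), NLRP2 and NR0B1. KLK10 was nearest to TRIM22 (0.50), LGALS9 and INA, KLK7 to FBXO2 (0.76), LMO2 and GPR78, and KLK5 to ATP6V1B1 (1.04), BPIFB1 and SLC1A3. TGM1 lay nearest to LIFR (0.33, r 0.990), GGT6 and PPM1K. KLK11 had ACHE (0.67), TMPRSS2 and AMOT beside it, SPRR1B had PPFIA4 (0.66), TNFSF14 and DDIT4, and SPRR3 had TBX1 (0.68) and RBPMS2. Among the 10 genes themselves the closest pairs were KLK6 with KLK7 (1.09) and KLK7 with KLK8 (1.17). IVL, with no group mean of 100, was left out. All these values share the same 18 libraries, in which the 6 Resistant ones differ from the rest, so they describe and test nothing.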

How the data were processed

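Per the labels, libraries were directional and depleted of ribosomal RNA. Tools named in the submitters' processing notes are FastQC, STAR, featureCounts, MultiQC and build hg19, with no versions. The deposited values are log10(count + 1), not scaled: undoing the log10 gave whole numbers in 100% of cells (tolerance 1e-06). Counts of 1 stand in 1583 cells and counts of 2 in 6166, so counts may come in pairs and counting intervals may be too narrow. Of 22549 lines, 2557 named NewGene and 60 of 15 repeated symbols were left out, and 12 per-sample columns with no match by name in the labels were not used.

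Recovered counts were scaled by TMM (trims 0.3 and 0.05) and tested with limma 3.58.1 on log2(scaled count + 1) (R 4.3.3, with trend) in 1 fit of 18 libraries, for genes with at least 10 counts in 3 libraries, with Benjamini-Hochberg adjustment over 15211 genes. The plan named a count model for counts; limma was used because the deposited unit is log10. Each comparison set 3 libraries against 3, so p-values come from the spread pooled over all 6 groups. The fit was tested on simulated data. Alternatives were other scalings, no filter, no trend, voom weights, a pseudocount of 0.1, a replicate block, fitting just the 2 or 4 groups of a comparison, requiring a 2-fold change and each library left out. At these totals (30075330 to 45068508 counts) the spread between libraries limits precision for abundant genes, and depth limits it for genes under 10 counts.

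The 10 genes and all lists were chosen with earlier results of these data known. Of each list at most 4 genes are named: those called in DTP EV or Resistant EV with the widest change and a group mean of at least 100, and for each member with such a mean its 3 nearest genes; 2 genes that the rule names are not reported here. SPRR1A, SPRR2E, CSTA, KLK14, AC011473.4, C19orf48, CTU1, S100A9 and the markers KRT1, KRT2, KRT5, KRT10, TP63, DSG1, MUC1, EPCAM, SFTPA1, SFTPA2, SFTPB, SFTPD, LOR, PTPRC, CD3E and MS4A1 were named outside this rule, with their values seen. Gene order, overlaps and exon lengths come from GENCODE release 29 and promoters from RefSeq (GRCh38.p14), matched by symbol for 8 of the 10 genes.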

Additional observations from a re-analysis of the deposited data

Results flagged for a closer look

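The effect of cATF6 overexpression differed between states in 4 of the 10 genes, by the interaction test of the limma fit. Of all tested genes, 30.2% were called against Parental cells and 30.4% against DTP cells, so the count says little by itself. For SPRR1B the effect in Resistant cells exceeded that in Parental cells by 4.43 and that in DTP cells by 5.26 on the log2 scale, and for SPRR3 by 4.73 and 4.30. The Resistant OC level was above the Resistant EV level in 3 of 3 libraries for both genes. For KLK6 the effect was larger in Resistant cells by 0.97 against Parental and 1.30 against DTP cells. For TGM1 the same differences were -1.52 and -1.26, with every Resistant OC library below every Resistant EV library. The cause was not tested. Resistant OC and Resistant EV share a library series that the DTP and Parental libraries are not in. In these differences between states, the state and the series cannot be told apart.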

How the results depend on the processing

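Of 1224 values of the 10 genes under alternatives, 1162 kept their direction and their side of the threshold, 19 lost a call, 17 gained one and 26 changed sign, 0 of them among values called in the fit as reported. Quantile normalization turned KLK8 in Parental OC against Parental EV to 0.0125, and scaling by library totals alone turned IVL in Resistant EV against Parental EV to -0.20, with the median of all genes shifted by -0.23 there and by -0.27 in Resistant EV against DTP EV. With each library left out in turn, the log2 differences between Resistant EV and Parental EV ran from -0.28 to 0.38 for IVL, and those between DTP EV and Parental EV from -0.56 to 0.0593 for KLK6 and -1.001 to 0.37 for KLK7. Between DTP OC and DTP EV they ran from -0.59 to 0.0671 for KLK5, -1.20 to 0.43 for KLK7, -0.36 to 0.42 for KLK8 and -0.37 to 0.0924 for TGM1. Between Parental OC and Parental EV they ran from -0.11 to 0.0279 for KLK6, -0.12 to 0.55 for KLK7, -0.38 to 0.28 for KLK8, -0.29 to 0.0414 for SPRR1B and -0.33 to 0.32 for IVL.

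Of the 10 genes, 0 to 3 were called in DTP OC against DTP EV with 1 library left out, and 0 to 1 for the difference of that effect from Parental cells. The 3 (KLK6, KLK10 and KLK11) and the 1 (KLK6, log2 -0.74, adjusted p = 0.000658) were called without DTP EV replicate 1. The cause was not tested. Beyond the calls named in the results, KLK5 in Resistant OC was called with voom weights (log2 -0.17, adjusted p = 0.0255), SPRR3 in DTP EV without DTP EV replicate 1 (1.15, 0.0383) and IVL in Resistant EV against DTP EV with library totals (-2.05, 0.0307), voom weights (-1.84, 0.0124) or only those groups (adjusted p = 0.00485). KLK11 in Resistant EV against DTP EV was lost with quantile normalization (adjusted p = 0.0747) and with only those groups (0.0796). A pseudocount of 0.1 moved SPRR1B to -8.20 in Resistant EV against Parental EV, -4.93 against DTP EV and 6.60 in Resistant OC against Resistant EV, KLK5 to 6.43 in DTP EV against Parental EV and KLK7 to 9.28 in Resistant EV against DTP EV, all still called. With a 2-fold minimum KLK6 was no longer called in Resistant OC. Replicate numbers did not pair the libraries (same-number correlations -0.122 to 0.0882), and with the replicate number as a block 6, 9 and 9 genes were called in the comparisons of states and 4 in Resistant OC, as without it.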
